A study of Homo sapiens with 6 samples.

Results

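Transcripts for iron uptake, iron storage and ferroptosis were examined in DU145 prostate cancer cells with raised TFEB, a transcription factor of lysosome and autophagy genes. The members were 10 genes named by symbol: TFRC, STEAP3, FTH1, FTL, NCOA4, IREB2, ACO1, ACSL4, POR and GPX4. Rows for 9 of the 10 were analysed, among 10542 listed genes in all, and ACO1 was not analysed here. The genes were chosen by their behaviour in the comparison described here: the deposited table was selected on the authors' adjusted p for DU145-TFEB versus DU145-vector, and the members were named with those differences known. Their differences between the groups are therefore given as descriptions, without a test.

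DU145 is an established human line that grows as an epithelial sheet and came from a brain metastasis of prostate cancer. DU145-TFEB cells carried a lentivirus for TFEB overexpression and DU145-vector cells the blank lentivirus, and both lines had been made stable by puromycin. Each group had 3 poly-A mRNA libraries, with 13999961, 16511477 and 14146832 reads on the listed genes for DU145-TFEB replicates 1 to 3 and 14776019, 14603929 and 14217130 for DU145-vector replicates 1 to 3. The labels do not say whether the 3 libraries of a group came from separate cultures, so the spread between them may be technical. Both lines are transduced and selected populations, and a DU145 line without a virus is not among the libraries.

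The labels were checked first. TFEB stood at 6325, 6301 and 6036 normalized counts in the 3 libraries of DU145-TFEB and at 127.4, 123.9 and 125 in those of DU145-vector, a 49.6-fold higher mean. A normalized count is a library's reads on a gene divided by 1 size factor for that library. Of 6 epithelial markers 4 were analysed. The epithelial keratin KRT8 stood at 16978 ± 3348 normalized counts with TFEB and at 26868 ± 1956 in DU145-vector (mean ± SD, n = 3), and its partner KRT18 at 6385 ± 1328 and 10842.1 ± 768. Of the marker genes of other cell types, 0 of 6 for fibroblasts and 0 of 5 for red cells were analysed. For blood cells 1 of 5 was analysed, CD79A, a B cell receptor component, with 14.8 ± 4.42 normalized counts with TFEB (SD, n = 3) and 0.98, 0 and 0 in the DU145-vector libraries. Since these were bulk libraries, fewer cells with a transcript and less of it per cell cannot be told apart.

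Most cells take up iron as transferrin through the transferrin receptor TFRC, and STEAP3 reduces it inside endosomes so that it can enter the cytosol. Spare iron is kept in ferritin, a cage of FTH1 and FTL chains, and NCOA4 carries ferritin to the lysosome, where the cage is broken down and the iron released. When iron is scarce, the iron regulatory proteins encoded by ACO1 and IREB2 bind hairpins called iron-responsive elements, which blocks translation of ferritin and protects TFRC mRNA from decay. Ferroptosis is an iron-dependent death by peroxidation of membrane lipids. ACSL4 supplies the polyunsaturated lipids that are oxidised, POR passes electrons that can drive the oxidation, and the selenoenzyme GPX4 reduces the lipid peroxides.

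The iron-responsive elements are shown because they join the 3 members with the textbook iron response, TFRC, FTH1 and FTL. Untranslated regions (UTRs) of GENCODE 29 coding transcripts were searched for the loop CAGTGN, its last base not G, between 5 bases on either side that pair with each other, wobble pairs allowed, and with an unpaired C in front. The search found 1 such element in the 5′ UTR of FTH1, 1 in that of FTL and 4 in the 3′ UTR of TFRC. Each is printed 5′ to 3′ along the transcript in DNA letters, with 29 bases and the loop in capitals.
FTH1 5′ UTR: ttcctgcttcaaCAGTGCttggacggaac
FTL 5′ UTR: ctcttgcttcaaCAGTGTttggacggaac
TFRC 3′ UTR first: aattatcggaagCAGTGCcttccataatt
TFRC 3′ UTR second: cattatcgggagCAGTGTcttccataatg
TFRC 3′ UTR next: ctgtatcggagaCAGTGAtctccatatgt
TFRC 3′ UTR last: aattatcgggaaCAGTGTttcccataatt
In GRCh38 the FTH1 element lies at chr11:61967574-61967602 on the minus strand and the FTL element at chr19:48965335-48965363 on the plus strand. The TFRC elements, all on the minus strand, lie at chr3:196050979-196051007, chr3:196050575-196050603, chr3:196050510-196050538 and chr3:196050463-196050491. Elements that met this search occurred in a 5′ UTR of 22 of 19641 coding genes (0.112%) and in a 3′ UTR of 101 (0.514%). They occurred in no UTR of STEAP3, NCOA4, IREB2, ACSL4, POR or GPX4. A match of letters is a description and not a measured binding site. The search took only the loop and the 5 unbroken pairs given above, so elements of another form were missed by design. The 4 in TFRC is thus a count of matches, not of all its elements.

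All 9 members had DU145-TFEB and DU145-vector libraries that did not overlap, which was also true of 99.3% of the listed genes. In DU145-TFEB cells 5 members were higher (STEAP3, FTH1, FTL, POR and GPX4) and 4 were lower (TFRC, NCOA4, IREB2 and ACSL4). At the study's cutoffs, an adjusted p below 0.05 and a log2 fold change beyond 1.5 in limma, 0 members were called higher beside 2.54% of listed genes, and 3 were called lower, TFRC, IREB2 and ACSL4, beside 16.5%. ACSL4, at a log2 fold change of -1.87, was the called member nearest the cutoff, and NCOA4, at -1.27, the nearest one outside it. Nothing is read from these shares, since the members came from the same comparison.

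**Figure D1:**
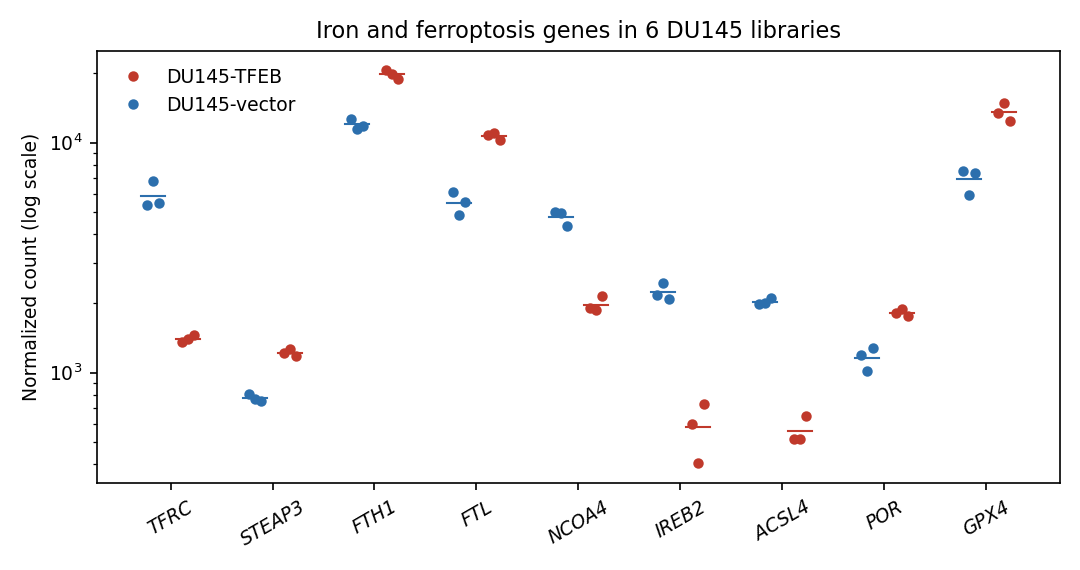
Normalized counts (log axis) of the 9 analysed members in each of the 3 DU145-vector and 3 DU145-TFEB libraries, with a point per library and a line at each group's mean. TFRC, NCOA4, IREB2 and ACSL4 lie lower in DU145-TFEB, the other 5 lie higher, and no group overlaps the other.

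The uptake receptor was among the members with the largest differences, with a log2 fold change within 1 SE of that of IREB2. TFRC (ENSG00000072274, chr3:196027183-196082189, minus strand) had 1357, 1397 and 1451 normalized counts in DU145-TFEB replicates 1 to 3 and 5374, 6788 and 5477 in DU145-vector replicates 1 to 3. Every DU145-TFEB library lay far below the lowest DU145-vector library, and DU145-vector replicate 2 was the highest of the 6. The group means were 1402 ± 46.8 and 5880 ± 788 (SD, n = 3), 4.20-fold higher in DU145-vector, with a log2 fold change of -2.06 (SE 0.095). Of all listed genes, 4.57% had a lower log2 fold change.

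The endosomal reductase went the other way. STEAP3 (ENSG00000115107, chr2:119223831-119265652, plus strand) had 1214, 1271 and 1181 normalized counts in the 3 libraries of DU145-TFEB and 809.6, 767.6 and 752 in those of DU145-vector. All 3 DU145-TFEB libraries were higher, with means of 1222 ± 45.8 and 776 ± 29.8, a 1.57-fold difference and a log2 fold change of 0.65 (SE 0.077). On the scale of normalized counts per kilobase of exon, the ratio of STEAP3 to TFRC was 1.55, 1.57 and 1.41 in DU145-TFEB and 0.260, 0.195 and 0.237 in DU145-vector. On that scale STEAP3 stood above TFRC in each DU145-TFEB library and below it in each DU145-vector library, with a 6.53-fold difference between the mean ratios.

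Both ferritin chains were higher with TFEB. FTH1, the heavy chain with the ferroxidase site (ENSG00000167996, chr11:61959718-61967660, minus strand), had 20609, 19841 and 18902 normalized counts with TFEB and 12719, 11488 and 11812 in DU145-vector. The lowest DU145-TFEB library was well above the highest DU145-vector library, and the means of 19784 ± 855 and 12006 ± 638 differed 1.65-fold (log2 fold change 0.72, SE 0.069). FTL, the light chain (ENSG00000087086, chr19:48965301-48966878, plus strand), had 10760.1, 10975 and 10232 normalized counts with TFEB and 6107, 4850.2 and 5493 in DU145-vector. Its groups were also apart, with means of 10656 ± 382 and 5483 ± 628, a 1.94-fold difference and a log2 fold change of 0.96 (SE 0.088). Both chains together took 0.213%, 0.205% and 0.198% of the reads on listed genes in DU145-TFEB, against 0.130%, 0.115% and 0.122% in DU145-vector.

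Per kilobase of exon, FTL was slightly more abundant than FTH1 in 5 of the 6 libraries. The ratio of FTL to FTH1 was 1.21, 1.28 and 1.25 in DU145-TFEB and 1.11, 0.976 and 1.08 in DU145-vector. The groups did not overlap, with mean ratios of 1.25 ± 0.036 and 1.05 ± 0.069 with the authors' scaling.

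The receptor that sends ferritin to the lysosome was lower, opposite to ferritin itself. NCOA4 (ENSG00000266412, chr10:46005088-46030714, minus strand) had 1913, 1864 and 2151 normalized counts with TFEB and 5016, 4932 and 4353 in DU145-vector. DU145-TFEB replicate 3 and DU145-vector replicate 3 were the closest of the 2 groups and were still more than their SDs apart. The means of 1976 ± 154 and 4767 ± 361 differed 2.41-fold, higher in DU145-vector, with a log2 fold change of -1.27 (SE 0.085). The per-kilobase ratio of NCOA4 to FTH1 was 0.0462, 0.0468 and 0.0566 in DU145-TFEB and 0.196, 0.214 and 0.183 in DU145-vector, a 3.97-fold lower mean ratio with TFEB. For TFRC to FTH1, a receptor and a storage transcript that both carry iron-responsive elements, the ratio was 0.0170, 0.0181 and 0.0198 in DU145-TFEB and 0.109, 0.152 and 0.119 in DU145-vector, 6.93-fold lower with TFEB.

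**Figure D2:**
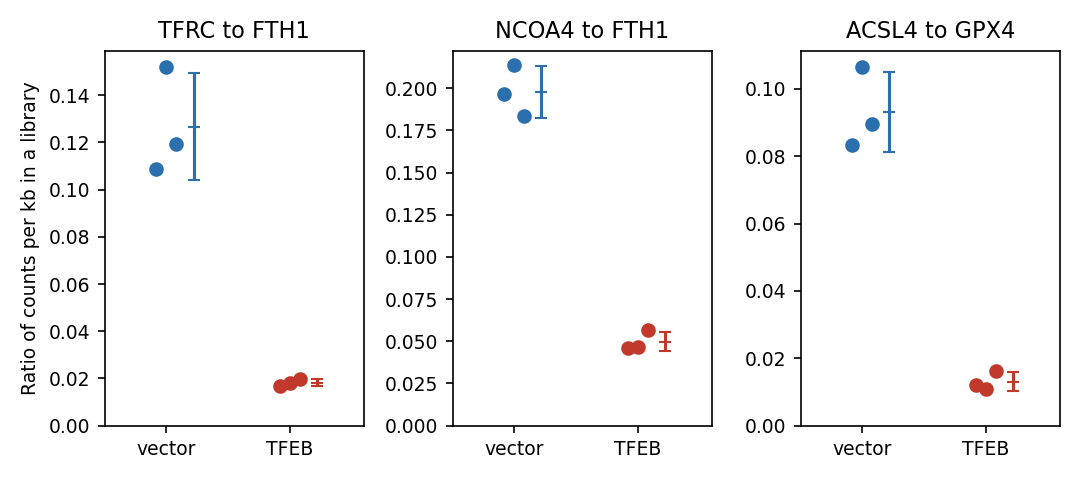
Ratios of normalized counts per kilobase of exon (linear axes from 0) for TFRC to FTH1, NCOA4 to FTH1 and ACSL4 to GPX4, with a point per library and the mean ± SD beside each group (n = 3). In all 3 panels every DU145-TFEB library lies below every DU145-vector library.

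Among the iron regulatory proteins only IREB2 was analysed. IREB2 (ENSG00000136381, chr15:78437431-78501456, plus strand), whose protein is degraded when iron is plentiful, had 598, 404 and 732 normalized counts with TFEB and 2185, 2440.2 and 2090.0 in DU145-vector. Its DU145-TFEB libraries spread more than those of any other member, with a coefficient of variation of 28.5%, and all lay below the DU145-vector libraries. The means were 578 ± 165 and 2238 ± 181, 3.87-fold higher in DU145-vector, with a log2 fold change of -1.99 (SE 0.18).

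Of the 3 ferroptosis members, ACSL4 was lower while POR and GPX4 were higher. ACSL4 (ENSG00000068366, chrX:109624244-109733403, minus strand) had 516, 513 and 646 normalized counts with TFEB and 1991, 2003 and 2110.0 in DU145-vector. DU145-TFEB replicate 3 was the highest of its group and far below every DU145-vector library. The means of 558 ± 75.9 and 2035 ± 65.5 differed 3.64-fold, higher in DU145-vector, with a log2 fold change of -1.87 (SE 0.10).

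GPX4 (ENSG00000167468, chr19:1103926-1106791, plus strand) had 13500.1, 14917 and 12453 normalized counts with TFEB and 7523, 5919 and 7411 in DU145-vector. The groups were apart, with DU145-TFEB replicate 2 the highest and DU145-vector replicate 2 the lowest library. The means of 13623 ± 1236 and 6951 ± 895 differed 1.96-fold (log2 fold change 0.98, SE 0.105). POR (ENSG00000127948, chr7:75899200-75986855, plus strand) had 1824, 1881 and 1767 normalized counts with TFEB and 1188, 1016 and 1278 in DU145-vector. It was higher in every DU145-TFEB library, with means of 1824 ± 56.8 and 1161 ± 133, a 1.57-fold difference and a log2 fold change of 0.66 (SE 0.094). The per-kilobase ratio of ACSL4 to GPX4, which set the supply of oxidisable lipid beside the enzyme that repairs it, was 0.0120, 0.0108 and 0.0163 in DU145-TFEB and 0.0833, 0.107 and 0.0896 in DU145-vector, 7.13-fold lower with TFEB.

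In order of level per kilobase of exon, DU145-vector cells had FTL (6245), FTH1 (5914), GPX4 (3443), NCOA4 (1169), TFRC (746), ACSL4 (317), IREB2 (207), POR (189.9) and STEAP3 (170.2 normalized counts per kilobase). The neighbours FTL and FTH1, IREB2 and POR, and POR and STEAP3 overlapped between libraries and cannot be ordered. DU145-TFEB cells kept FTL (12136), FTH1 (9746), GPX4 (6747) and NCOA4 (485) as the most abundant 4, followed by POR (298), STEAP3 (268), TFRC (178), ACSL4 (87.0) and IREB2 (53.5 normalized counts per kilobase), and no neighbours in that order overlapped. The receptor TFRC thus stood above STEAP3 and POR in DU145-vector and below both in DU145-TFEB. The order of different genes on this scale depends on the exon lengths used.

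The direction of the members went with their base composition. The 4 lower members had transcript GC contents of 41.5% (TFRC), 43.1% (NCOA4), 38.3% (IREB2) and 37.4% (ACSL4), while the 5 higher ones had 50.1% (FTH1), 56.3% (FTL), 56.9% (STEAP3), 61.3% (POR) and 62.5% (GPX4), taken from the longest GENCODE 29 transcript of each gene. Over all listed genes the same ordering held: the median log2 fold change was -1.38 in the lowest of 5 equal classes of GC content, then -1.10, -0.46 and 0.54, and 0.66 in the highest. Single libraries also differed in this respect. The median log2 deviation from the gene means in the highest GC class minus that in the lowest was 0.97, 1.31 and 0.69 in DU145-TFEB replicates 1 to 3 and -0.90, -1.26 and -0.86 in DU145-vector replicates 1 to 3.

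**Figure D3:**
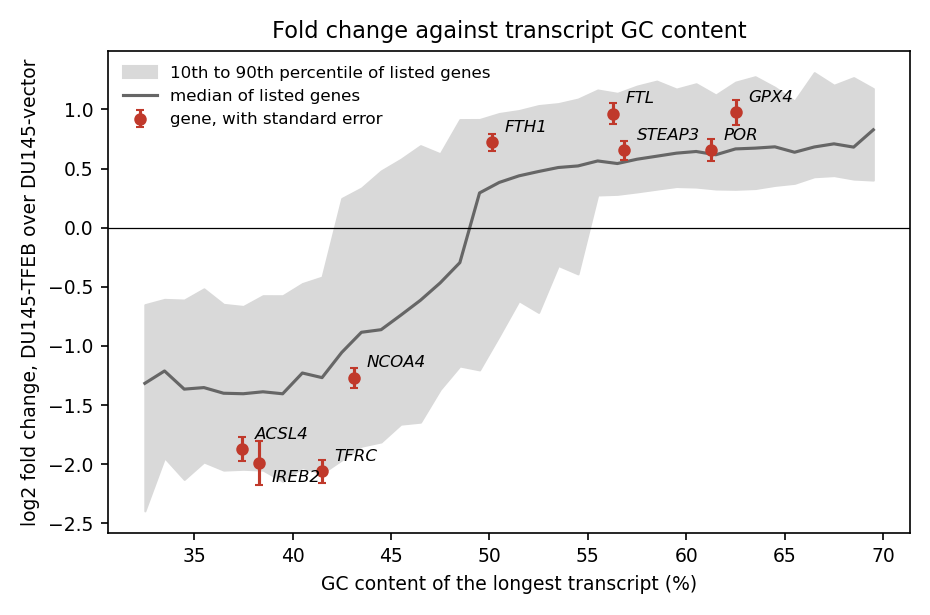
Log2 fold change (DU145-TFEB over DU145-vector) against transcript GC content in percent for the 9 members (bars of 1 SE), over the median in bins of 1 percentage point and the 10th to 90th percentile of the listed genes. The 4 members with a GC content under 44% lie below 0 and the 5 above 50% lie above 0, as do the medians of the listed genes there.

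Set beside listed genes of their own GC content, in windows of 1 percentage point, the members differed less. TFRC was -0.79 from the median of 533 genes (log2 fold change -2.06 against -1.27), IREB2 was -0.60, ACSL4 -0.47 and NCOA4 -0.39 from theirs. FTL was 0.42, FTH1 0.34 and GPX4 0.31 above, while STEAP3 (0.11) and POR (0.040) stood at about the median of genes with their base composition. All 9 lay within the range from the 10th to the 90th percentile of their window.

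When the trend against GC content and gene length was removed from each library, 6 members kept their sign and 3 did not. The log2 fold changes were then -1.33 for TFRC, -0.99 for IREB2, -0.91 for ACSL4, -0.91 for NCOA4, 0.23 for FTH1 and 0.29 for FTL. STEAP3 (-0.23), POR (-0.40) and GPX4 (-0.19) changed sign, so that 2 members were higher and 7 lower. None of the 9 was called any longer, with 0 calls beside 1.33% of listed genes called higher and 4.93% called lower under that setting. The median over all listed genes was -0.36 before and -0.37 after the removal, and relative to it the trend-removed values were -0.96 for TFRC, 0.60 for FTH1, 0.66 for FTL, 0.18 for GPX4, 0.14 for STEAP3 and -0.027 for POR. The ratio of TFRC to FTH1 remained lower with TFEB, at a log2 difference of -1.56 in place of -2.78, as did NCOA4 to FTH1 (-1.15 for -1.99) and ACSL4 to GPX4 (-0.72 for -2.85). STEAP3 to TFRC remained higher, at 1.09 in place of 2.72. For FTL to FTH1 the log2 difference went from 0.24 to 0.053, and it turned to -0.27 when the trend against GC content alone was removed, which left FTL at 0.078 (SE 0.062). Base composition and TFEB differ between the same 2 groups of libraries and cannot be told apart here.

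**Figure D4:**
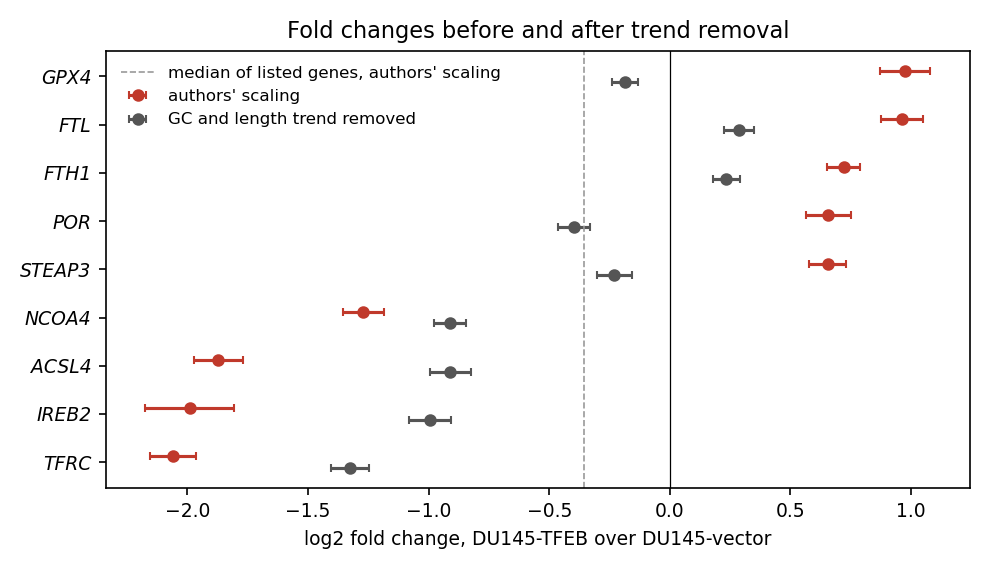
Log2 fold change (DU145-TFEB over DU145-vector) of each member with the authors' scaling and after the trend against GC content and gene length was removed from each library, with bars of 1 SE and a dashed line at the median of the listed genes (-0.36). TFRC, NCOA4, IREB2 and ACSL4 stay below 0, FTH1 and FTL stay above 0, and STEAP3, POR and GPX4 cross it.

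Single libraries were also compared within groups. DU145-TFEB replicate 3, which had the smallest GC difference of its group, was the library nearest to DU145-vector for 9 of 9 members, and DU145-TFEB replicate 2, with the largest, was the farthest for 7. The whole libraries showed the same order. Over all listed genes, the chi-square per gene against DU145-vector replicates 1 to 3 was 173, 226 and 163 for DU145-TFEB replicate 3. For DU145-TFEB replicate 2 it was 259, 324 and 246. The 9 of 9 is therefore not particular to the members. In DU145-vector, replicate 2, with the most negative GC difference, was the farthest from DU145-TFEB for 6 members and the nearest for 0. Replicate 1 was the nearest for 6 and replicate 3 for 3, although replicate 3 had the GC difference closest to DU145-TFEB. The part of this feature in the member values of single libraries was not tested.

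Reads of some members can be shared with other genes. The FTH1 pseudogene FTH1P7 (chr13:22696023-22696574) had 54.7, 40.0 and 48.8 normalized counts with TFEB and 32.3, 16.6 and 28 in DU145-vector, small beside FTH1 and higher in the same group. In GENCODE 29, 1267 of 2030 exon bases of FTH1 also lie in exons of BEST1 on the opposite strand, and 500 of 4562 exon bases of STEAP3 in those of the antisense gene STEAP3-AS1. Smaller overlaps were 78 bases between ACSL4 and KCNE5, 73 between POR and MIR4651, and 19 between POR and TMEM120A. TMEM120A was the one overlapping gene analysed, with means of 1298 and 828 normalized counts with TFEB and DU145-vector. The strand setting of the read counting is not given in the sources used here, so reads of overlapping genes cannot be told apart.

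The genes whose profiles over the 6 libraries lay nearest to TFRC, by the root mean square distance of log2 deviations among 9221 protein-coding genes, were SCN3B (0.065), SUV39H2 (0.080) and BNC1 (0.083). For FTH1 they were CHST12 (0.020), CYBC1 (0.027) and DAG1 (0.030). These distances include the difference between the groups, so neighbours had similar log2 fold changes. They were -2.02, -1.92 and -1.96 beside -2.06 for TFRC, and 0.75, 0.72 and 0.71 beside 0.72 for FTH1. SCN3B was low, at means of 7.30 normalized counts with TFEB and 33.1 in DU145-vector.

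Beyond the members, 8 lists held 144 genes of iron handling and ferroptosis, of which 89 were analysed. In DU145-TFEB 53 of them were higher and 36 lower, with 1 called higher (2.54% among all listed genes) and 10 called lower (16.5%) and a median log2 fold change of 0.31. Among all listed genes, 5015 of 10542 (47.6%) were higher and the median was -0.36. With the GC and length trend removed, 29 of the 89 were higher, beside 2658 of all listed genes. The median of the 89 was then -0.20 and that of all listed genes -0.37. Without the members, 48 of 80 genes were higher, with a median of 0.30.

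**Figure D5:**
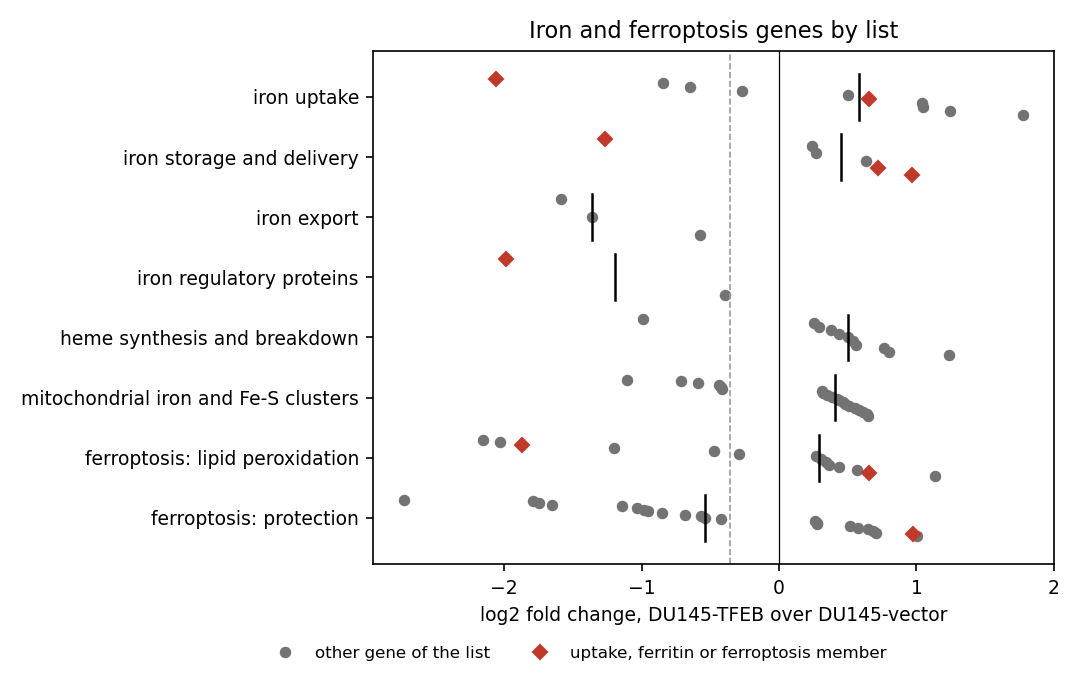
Log2 fold change (DU145-TFEB over DU145-vector) of the analysed genes in each of 8 lists, with the members marked and list medians as bars. The dashed line is the median of all 10542 listed genes, -0.36.

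Among the iron uptake genes 6 of 10 were higher (47.6% among all listed genes), 1 of them called (2.54%). The other 4 were lower, 1 of them called (TFRC, beside 16.5%). The median log2 fold change of the list was 0.58 (-0.17 and 3 of 10 higher with the trend removed). The melanoma-associated transferrin homologue MELTF had 3506 ± 143 normalized counts with TFEB and 1696 ± 103 in DU145-vector (log2 fold change 1.05, and -0.11 with the trend removed). The metalloreductase STEAP2 had 133 ± 58.7 and 51.8 ± 3.44 (1.24, and 2.32 with the trend removed), so it was higher under either scaling. STEAP1, its close relative, was the gene called higher, at 50.5 ± 10.5 and 14.1 ± 3.84 (1.78, and 2.01 with the trend removed), and was named after its values were seen. The lysosomal channel MCOLN1 stood at 1.04 (-0.050 with the trend removed). The metal importer SLC39A8 was lower at 468 ± 16.5 against 843 ± 40.6 (-0.85, and -0.53), as was CD44, a hyaluronan receptor linked to iron uptake, at 2199.7 ± 147 against 3452 ± 128 (-0.65, and -0.22).

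Of the storage and delivery genes 5 of 6 were higher (47.6% among all listed genes), with a median of 0.45. With the trend removed 3 of 6 were higher and the median was -0.087. Of the 6, 0 were called, beside 2.54% of all listed genes called higher and 16.5% called lower. The iron chaperones PCBP1, PCBP2 and PCBP4 had log2 fold changes of 0.24, 0.27 and 0.63, and with the trend removed of -0.58, 0.24 and -0.41. All 3 analysed export genes were lower, beside 5527 of 10542 listed genes, with a median of -1.36 (-0.83 with the trend removed). Of the 3, 1 was called lower, beside 16.5% of all listed genes. Ferroportin, the iron exporter SLC40A1, had 98.0 ± 15.0 normalized counts with TFEB and 145.7 ± 11.1 in DU145-vector (log2 fold change -0.58, and -0.13). Its 5′ UTR held an element that met the same search as those of ferritin, at chr2:189580661-189580689 on the minus strand of GRCh38.
SLC40A1 5′ UTR: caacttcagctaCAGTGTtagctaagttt
The heme exporter FLVCR1 had 371 ± 28.0 and 956 ± 136 (-1.36, and -0.83 with the trend removed), and the ferroxidase homologue HEPHL1, called lower and named after its values were seen, stood at -1.59 (-1.09 with the trend removed, short of the cutoff). HEPHL1 was near the floor, at 6.36 ± 1.79 normalized counts with TFEB and 21.3 ± 6.52 in DU145-vector, with 5 reads in its lowest library.

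The regulator list had 2 analysed genes, and both were lower, beside 5527 of 10542 listed genes. Their median was -1.19, and with the trend removed it was -0.37 and 1 of the 2 was higher. Of the 2, 1 was called lower (IREB2), beside 16.5% of all listed genes. The other was FBXL5, the ligase subunit that targets the IREB2 protein when iron is high, at 1344 ± 50.9 against 1764 ± 87.4 normalized counts (log2 fold change -0.39, and 0.25 with the trend removed). Heme genes were mostly higher with the authors' scaling, 10 of 11 (47.6% among all listed genes), with a median of 0.50. With the trend removed 3 of 11 were higher and the median was -0.29. Of the 11, 0 were called, beside 2.54% of all listed genes called higher and 16.5% called lower. BLVRB, a biliverdin reductase, had 4954 ± 521 and 2096 ± 74.6 (1.24, and 0.27), and the heme transporter SLC48A1 stood at 0.80 (-0.12). PGRMC1, a heme-binding membrane protein, was the lower one with the authors' scaling, at 934 ± 68.4 against 1851 ± 57.4 (-0.99 under both scalings). ALAS1, the first enzyme of heme synthesis, stood at 0.25 (-0.35). Of the mitochondrial iron and iron-sulfur cluster genes 14 of 20 were higher (47.6% among all listed genes) and 6 lower, with a median of 0.41. With the trend removed 8 of 20 were higher and the median was -0.17. Of the 20, 0 were called, beside the same 2.54% and 16.5% of all listed genes. The cluster assembly gene ISCA2 stood at 0.64 (0.87) and the ferredoxin reductase FDXR at 0.65 (-0.44). The transporter ABCB10 had 433 ± 25.7 against 930.2 ± 39.3 (-1.10, and -0.96).

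Among the lipid peroxidation genes 8 of 14 were higher (47.6% among all listed genes) and 6 lower, with a median of 0.29. With the trend removed 5 of 14 were higher and the median was -0.091. Of the 14, 3 were called lower and 0 higher, beside 16.5% and 2.54% of all listed genes. FAR1, which makes fatty alcohols for ether lipids, had 350.4 ± 91.4 normalized counts with TFEB and 1536 ± 246 in DU145-vector (log2 fold change -2.15, and -0.90). The glutamine transporter SLC38A1 had 1001 ± 255 and 4037 ± 559 (-2.03, and -1.22). ALOX12, a lipoxygenase, had 209.6 ± 21.1 and 94.6 ± 5.63 (1.14, and 0.21), and LPCAT3, which places polyunsaturated chains in phospholipids, stood at 0.57 (-0.052).

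Of the 23 protective genes 10 were higher (43.5%, beside 47.6% among all listed genes) and 13 lower, with a median of -0.54. With the trend removed 6 of 23 were higher and the median was -0.19. Of the 23, 4 were called, all lower, beside the 16.5% called lower among all listed genes. SLC7A11, the cystine importer that feeds glutathione synthesis and so GPX4, had 382, 298 and 502 normalized counts with TFEB and 2251, 3219 and 2305 in DU145-vector. It was 6.58-fold higher in DU145-vector without overlap, with a log2 fold change of -2.73 (SE 0.19), and with the trend removed of -1.55. The phospholipid acyltransferase MBOAT2 had 362 ± 79.6 and 1242 ± 159 (-1.79, and -0.83). Named after their values were seen, the other 2 called genes were NFE2L2, the transcription factor NRF2, at 493 ± 104 against 1533 ± 166 (-1.65, and -1.45), and SEPSECS, which makes the selenocysteine tRNA that GPX4 needs, at 115 ± 15.9 against 385 ± 25.0 (-1.75, and -0.80). KEAP1, the adaptor that sends NRF2 to degradation, had 1811 ± 157 against 902 ± 26.1 (1.00, and -0.039), and the coenzyme Q enzyme COQ2 had 686 ± 42.3 against 419.6 ± 4.34 (0.71, and 0.45).

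TFEB is known to bind E-box letters in the promoters of lysosome genes, so windows from 250 bases before to 50 bases after RefSeq gene starts (GRCh38.p14) were searched on both strands. The E-box CACGTG occurred in 0 of the 7 members with an entry (TFRC, STEAP3, FTL, NCOA4, IREB2, ACSL4 and GPX4). It occurred in 7.26% of 35116 windows and in 12.6% of the 7619 listed genes with an entry. Its extended form TCACGTGA, which contains the E-box, occurred in 0 of 7, in 0.98% of windows and in 2.4% of listed genes with an entry. The antioxidant response letters TGACNNNGC occurred in NCOA4 alone of the 7, in 13.3% of windows and in 19.6% of listed genes with an entry. Absence of these letters from a window says nothing of binding by TFEB or NRF2 there or elsewhere. Of the 63 other list genes with an entry, 9 (14.3%) held CACGTG, and 1 of them, MCOLN1, held the extended form, in 2 copies 42 and 15 bases before its start. The stretch is shown as the contrast to the members, at chr19:7522570-7522623 on the plus strand, with both copies in capitals.
MCOLN1 promoter: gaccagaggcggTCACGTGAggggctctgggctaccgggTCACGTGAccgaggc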

How the data were processed

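Poly-A mRNA libraries of DU145-TFEB and DU145-vector cells (n = 3 each) were grouped by the sample labels. For 10542 genes the authors deposited a signal, gene reads scaled by 1 size factor per library, and also log2 fold changes and p-values of their own, which were not used. The deposited annotation columns gave other information, namely gene names, positions and exon lengths. The submitters' processing notes name CASAVA 1.8, HISAT2 2.1.0, edgeR and GRCh38, and the study's methods name DESeq2. The counting program, annotation and strand setting are not given in the sources used here, and 10541 positions equal those of GENCODE 29.

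Multiplied by the size factor, values gave whole reads (tolerance 0.02) in the libraries, 13999961 to 16511477 per library. Since the values were normalized, limma 3.58.1 with a mean-variance trend (R 4.3.3) was fitted to log2(normalized count + 1) over all listed genes, without a block. Fold changes of low genes are understated on that scale. Calls needed a Benjamini-Hochberg adjusted p below 0.05 and a log2 fold change beyond 1.5. Fits with DESeq2 1.42.0 and edgeR 4.0.16 on the recovered reads, other scalings, filters and pseudocounts, omission of each library, and loess removal (span 0.5) of trends against GC content and gene length in each library were the alternatives. The fits were tested on simulated data. Within groups, counts of library pairs differed by a chi-square of 2.96 to 26.6 per gene, so no library was a copy. Precision was given as the spread over libraries.

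Members and gene lists were chosen with earlier results of these data known. From each list the 2 non-members with the highest and the 2 with the lowest log2 fold change, at a mean of at least 50 normalized counts, were named, with TFEB, pseudogenes of members and the 3 nearest profiles of TFRC and FTH1. Of these, 1 gene that this rule names is not reported here.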

Additional observations from a re-analysis of the deposited data

How the results depend on the processing

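Directions of TFRC, NCOA4, IREB2, ACSL4, FTH1 and FTL were the same under all alternatives run, though FTL was 0.078 (SE 0.062) with the GC trend alone removed. Members called were 3, with 9 without a fold cutoff, 4 at a log2 cutoff of 1, 2 with the gene length trend alone removed (chosen after seeing the data), and 0 when the trend against GC content was removed alone, with gene length, or with gene length and the replicate block. Members higher in DU145-TFEB were 5, and 2 under those 3 settings. With GC content and gene length removed, with or without the replicate block, the log2 fold changes were -0.23 for STEAP3, -0.40 for POR and -0.19 for GPX4, and with GC content alone, chosen after seeing the data, -0.26, -0.37 and -0.083. Genes called in the table were 2009 (268 higher, 1741 lower), 660 (140 and 520) with GC and length removed, 659 with the block added, 626 with GC alone removed, 4161 at a log2 cutoff of 1 and 10539 without a cutoff. The replicate block by itself gave 2011. Same-numbered libraries did not deviate together (correlations of -0.018, -0.25 and -0.14), so the numbers were not treated as pairs. Omission of single libraries gave 1584 to 2316 calls, the lowest without DU145-TFEB replicate 2 and the highest without replicate 3 of that group. Without DU145-TFEB replicate 3 the log2 fold change was -2.18 for IREB2 and -2.09 for TFRC, the reverse of their order with all libraries. IREB2 fell short of the cutoff, at -1.48, with the gene length trend alone removed. The share of calls that were lower was 86.7%. It was 92.3% with a pseudocount of 5 (114 higher), 93.7% with at least 10 reads in every library (89 higher), 94.8% with a mean of at least 50 normalized counts (71 higher). It was 76.3% with upper-quartile scaling, 70.3% with DESeq2 size factors, 69.0% with DESeq2 and 58.9% with quantile normalization, and under these 4 the median of all listed genes moved from -0.36 to -0.18, -0.12, -0.11 and -0.031. The lowest read number of a member in any library was 444. The causes of these differences between settings were not tested.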
